A study of Homo sapiens with 6 samples.

Results

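Open chromatin at the genes of CDK6 and of the cyclins D3 (CCND3) and D2 (CCND2) was described from ATAC-seq peak lists of 6 established human lines of T-ALL (T-cell acute lymphoblastic leukaemia), in which immature T cells turn malignant. These were TALL-1, HBP-ALL, MOLT-4, DND-41, KOPT-K1 and CCRF-CEM, cultured with no treatment or genetic change named in the labels, with 1 library each. Every interval that overlapped 1 of 3 windows of the human genome, build hg19, was taken: chromosome 7 from 92210000 to 92490000 for CDK6, chromosome 6 from 41880000 to 42040000 for CCND3, and chromosome 12 from 4355000 to 4440000 for CCND2. The windows held 119 of 116055 intervals on chromosomes 1 to 22 and X. Intervals of different lines that shared 1 bp or more were then merged, and the windows held 30 of 40110 regions: 15 in the CDK6 window, 12 in that of CCND3 and 3 in that of CCND2.

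CDK6 is a kinase that drives cells out of the G1 phase. It is inactive until it binds a D-type cyclin, and the complex then phosphorylates RB1, which releases E2F factors to start DNA replication. Inhibitors of the INK4 family bind the kinase and keep the cyclin off, and those of the CIP/KIP family bind the cyclin-kinase complex. Thymocytes depend mainly on CDK6 and cyclin D3, and CCND3 is a known target of NOTCH1 signalling in T-ALL. Tn5 transposase, used in ATAC-seq, inserts sequencing adapters into open DNA, so peaks mark accessible sites such as promoters and enhancers. An accessible site does not show that the gene is transcribed.

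With 1 library per line, no value has a replicate error, and a difference between cell lines cannot be told apart from a difference between preparations. The lists held 16507 to 22367 intervals. The relative tag depth recovered from the lists, with CCRF-CEM set to 1, ran up to 2.096 in TALL-1. A peak lay within 2 kb of the CD3E start in every line, of the CD3D and CD3G starts in all lines but MOLT-4, of the CD7 start in 4 lines and of the CD2 start in HBP-ALL alone. In each line with a peak at CD3D and CD3G, the same interval was read for both genes. None of the lines had a peak at the B-cell gene PAX5 or the monocyte gene CD14, and CCRF-CEM alone had one at the myeloid gene SPI1.

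The starts of both CDK6 transcripts and the downstream start of CCND3 held a peak in all 6 lines, and their upstream sequences are shown because these are starts at which every line had a called peak. The upstream start of CCND3, shown with them, held a peak in CCRF-CEM and HBP-ALL only. The sequences are the 250 bases before each start from RefSeq, build GRCh38.p14, read 5′ to 3′ along the gene, which lies on the minus strand. Capitals mark matches, on either strand, to 9 short motifs: GGGCGG, the GC box, CCAAT for the CCAAT box, TATAAA for the TATA box, CACGTG for the E-box, CCGGAAG for ETS factors, TGTGGT for RUNX factors, TGGGAA for RBPJ, AGATAA for GATA factors and TTTNNCGC for E2F factors. The 4 stretches are, in the positions of that build, chr7:92836574-92836823 and chr7:92833960-92834209 for CDK6 and chr6:42048689-42048938 and chr6:41941809-41942058 for CCND3. These positions belong to another build than the peaks and cannot be set beside them.
CDK6 upstream start: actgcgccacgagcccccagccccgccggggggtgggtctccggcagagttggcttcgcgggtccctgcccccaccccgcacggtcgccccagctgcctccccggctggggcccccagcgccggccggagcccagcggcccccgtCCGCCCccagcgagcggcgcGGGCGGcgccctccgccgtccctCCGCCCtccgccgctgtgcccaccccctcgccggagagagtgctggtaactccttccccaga
CDK6 downstream start: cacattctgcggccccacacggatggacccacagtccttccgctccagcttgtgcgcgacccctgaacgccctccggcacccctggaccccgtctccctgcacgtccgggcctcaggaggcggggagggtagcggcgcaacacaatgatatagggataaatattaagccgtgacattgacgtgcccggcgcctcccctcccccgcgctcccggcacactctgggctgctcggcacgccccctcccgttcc
CCND3 upstream start: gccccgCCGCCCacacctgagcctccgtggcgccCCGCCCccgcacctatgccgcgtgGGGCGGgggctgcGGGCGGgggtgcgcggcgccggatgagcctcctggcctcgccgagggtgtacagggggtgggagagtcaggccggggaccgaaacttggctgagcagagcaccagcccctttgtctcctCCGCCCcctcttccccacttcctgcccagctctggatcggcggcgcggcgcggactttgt
CCND3 downstream start: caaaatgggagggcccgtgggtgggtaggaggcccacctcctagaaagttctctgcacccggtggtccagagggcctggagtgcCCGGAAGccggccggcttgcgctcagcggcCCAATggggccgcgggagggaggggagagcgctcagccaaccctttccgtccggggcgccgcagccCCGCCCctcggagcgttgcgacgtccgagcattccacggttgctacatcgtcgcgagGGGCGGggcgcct

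The 4 stretches were rich in G and C: 80.0% at the upstream and 67.6% at the downstream CDK6 start, and 74.4% at the upstream and 71.2% at the downstream CCND3 start, against a median of 58% over 35116 RefSeq promoters cut the same way. The GC box matched 3 times at the upstream CDK6 start, 5 times at the upstream CCND3 start and 2 times at the downstream CCND3 start, and 42.6% of all promoters held it. The downstream CCND3 start also held CCAAT, found in 32.0% of promoters, and CCGGAAG, found in 8.52%. The remaining motifs were in none of the 4 stretches: TATAAA is in 10.7% of promoters, the E-box letters in 6.34%, TGTGGT in 10.98%, TGGGAA in 20.8%, AGATAA in 9.17% and TTTNNCGC in 5.92%. None of the 9 motifs was in the stretch before the downstream CDK6 start. No motif lies inside another, on either strand. A match is a description of letters and not a site.

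Of the 30 regions, 10 (33.3%) held a peak in all 6 lines, against 22.6% of all merged regions. Another 4 held a peak in 5 lines, against 6.53% of all merged regions. Some of these regions lay at starts of neighbouring genes: FAM133B, BYSL and MED20, and TAF8 among the 10, and TIGAR among the 4. The shares without neighbour starts were not computed. Regions of a single line numbered 6 (20%), against 43.2% overall. The CDK6 window had 6 regions with a peak in every line, the CCND3 window 4 and the CCND2 window none. With a −log10 p of at least 10 required, the counts were 3, 3 and 0, and without TALL-1, an alternative chosen after seeing the data, the CCND2 count was 1. By line, TALL-1 had a peak in 18 of the 30 regions (60%), against 40.7% of all merged regions, and HBP-ALL in 17 (56.7%), against 54.5%. MOLT-4, DND-41 and KOPT-K1 had 20 each (66.7%), against 47.3%, 44.3% and 44.8%, and CCRF-CEM had 19 (63.3%), against 55.4%. A merged region that several lines share counts for each of them, so these shares follow the number of shared regions. Regions missed by 1 line alone numbered 2 for CCRF-CEM, 1 each for DND-41 and TALL-1, and 0 for HBP-ALL, KOPT-K1 and MOLT-4, which alone missed 0.738%, 0.691% and 0.561% of all merged regions.

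Named starts were placed by hand, rounded to 1 kb, and a region was assigned to the nearest start within 2 kb. By this rule 5 regions lay at starts of the 3 genes, 4 at starts of the neighbours FAM133B, BYSL and MED20, TAF8, and TIGAR, 17 in gene bodies and 4 outside the genes. The spacing of peaks bore on this placement. The peak at the upstream CDK6 start lay 2599 to 2861 bp from the nearest summit at the downstream start, and RefSeq places these starts 2614 bp apart in GRCh38.p14. All lines but DND-41 also had a farther summit there, which was not used, so this spacing depends on the summit taken. The peaks of TAF8 and of the downstream CCND3 start lay 108781 to 108827 bp apart, and their starts in RefSeq 108716 bp.

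**Figure D1:**
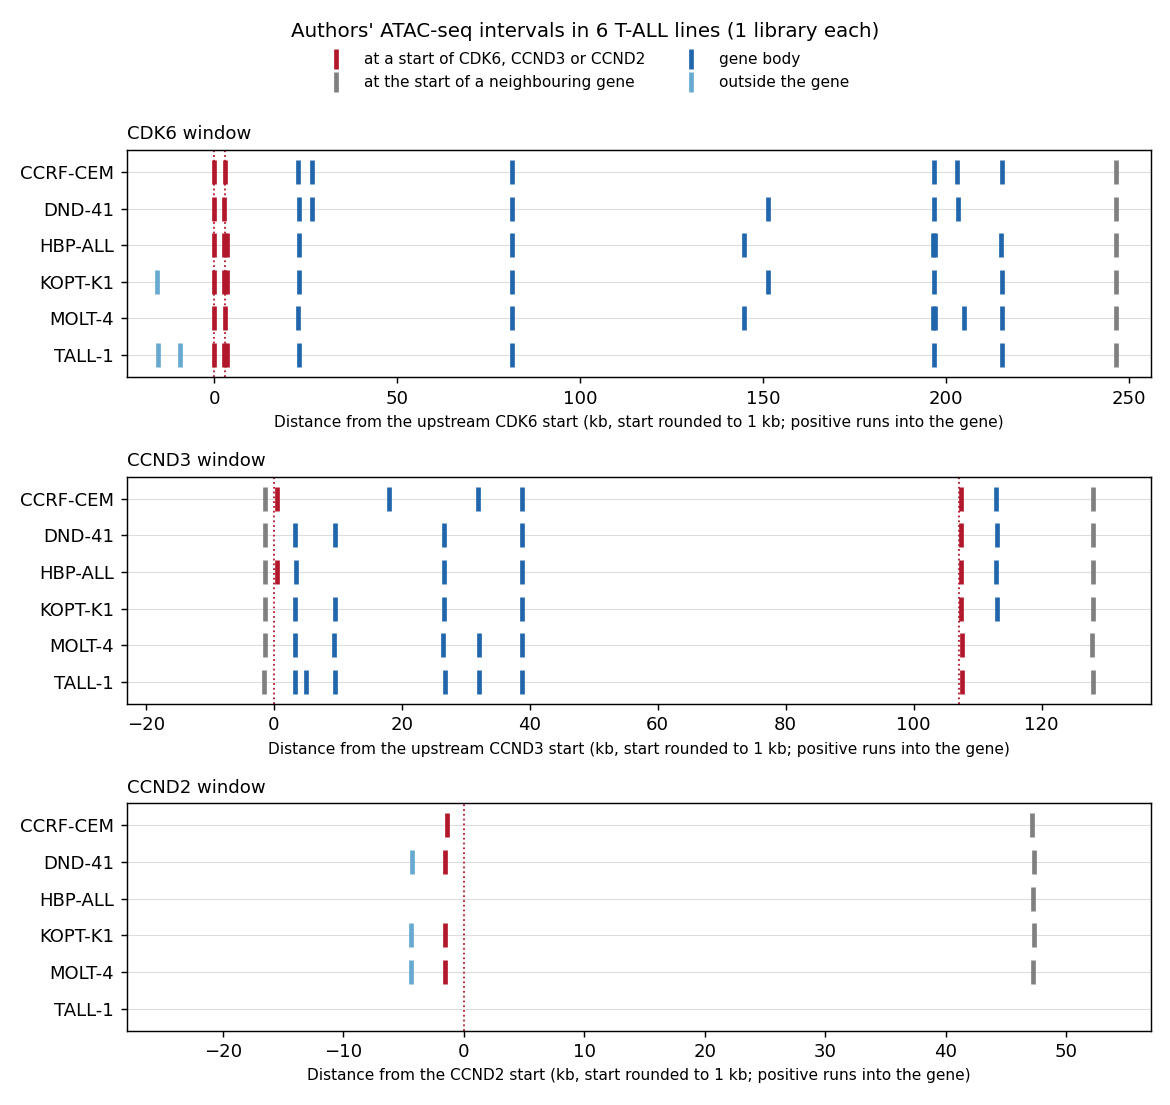
Intervals of each line in the windows of CDK6, CCND3 and CCND2, drawn as ticks at their centres (not to width) against the distance in kb from the gene start; dotted lines mark gene starts. The starts and 3 body sites of CDK6 and the downstream start and 1 body site of CCND3 are present in all 6 lines, and TALL-1 has no interval in the CCND2 window.

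At the upstream CDK6 start, chr7:92465752-92466360, every line had a single interval. Its width was 435 bp in TALL-1, 367 bp in HBP-ALL, 404 bp in MOLT-4, 570 bp in DND-41, 474 bp in KOPT-K1 and 401 bp in CCRF-CEM. The pileup, meaning how many tags overlie the summit, was 46 in TALL-1, 40 in HBP-ALL, 43 in MOLT-4, 40 in DND-41, 41 in KOPT-K1 and 41 in CCRF-CEM. The lines differed by 6 tags at most, the narrowest range among the 10 regions of these windows that all lines shared. DND-41 had 2 summits there, 95 bp apart, and the other lines had 1. In RefSeq the antisense RNA gene CDK6-AS1 begins beside this start and runs the other way, and ATAC-seq carries no strand to tell them apart.

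At the downstream CDK6 start, chr7:92462213-92463576, the lines differed in how the site was divided. CCRF-CEM and MOLT-4 each had 1 wide interval with 2 summits, of 1173 and 1142 bp, and the CCRF-CEM interval was the widest of the 3 windows. HBP-ALL, KOPT-K1 and TALL-1 had 2 separate intervals, and DND-41 had 1 interval of 489 bp with 1 summit. The summit nearer the start was present in every line, and the one farther inside the gene was missing in DND-41 alone. CCRF-CEM had 55 tags at the nearer summit and 28 at the farther one, and MOLT-4 41 and 35. In HBP-ALL the nearer summit had 28 tags and the farther 36, in KOPT-K1 35 and 27, and in TALL-1 39 and 39. The DND-41 summit had 45 tags. CCRF-CEM thus had the widest contrast between its summits, and the farther one was the higher in HBP-ALL alone.

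**Figure D2:**
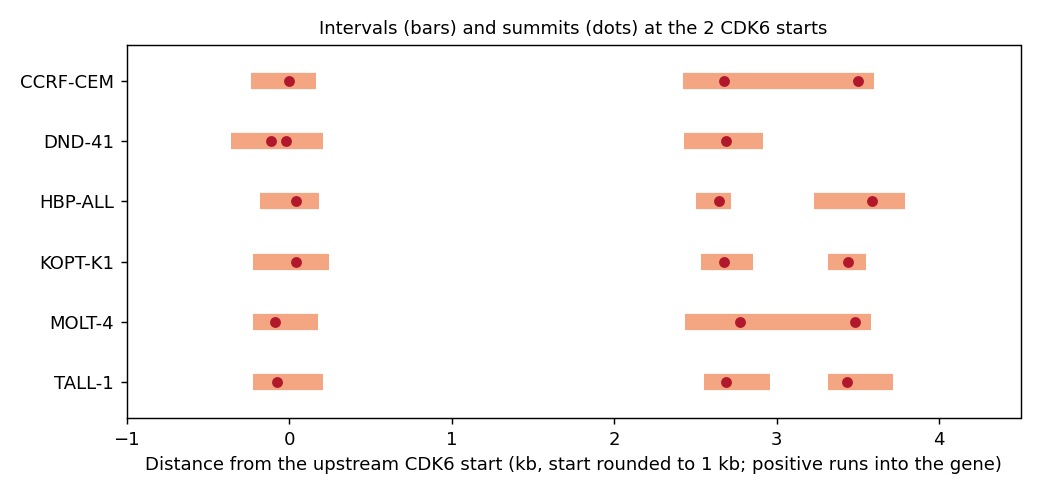
Intervals (bars) and summits (dots) of each line at the 2 CDK6 starts, against the distance in kb from the upstream start. CCRF-CEM and MOLT-4 have 1 joined interval with 2 summits near 3 kb, 3 lines have 2 intervals there, and DND-41 has 1.

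The CDK6 starts stood on a high local background, the tag number that the caller expected nearby. Over their 15 intervals it was 8.86 to 12.5 tags, against a median of 3.44 tags over the 34 intervals in the CDK6 body. Each of these backgrounds exceeded that of at least 97.2% of the intervals in the line's own list. The authors' fold enrichment, a ratio to that background, was 2.42 to 5.49 at the CDK6 starts, with a median of 3.40, against a median of 6.82 over the body intervals. The pileup of the strongest interval of each line ranked from the 63.9th to the 88.2nd percentile of each list at the downstream start and from the 71.5th to the 80.3rd at the upstream one. Each fold or rank is that of the line's own list, and ranks from lists of different lengths show no change between lines.

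**Figure D3:**
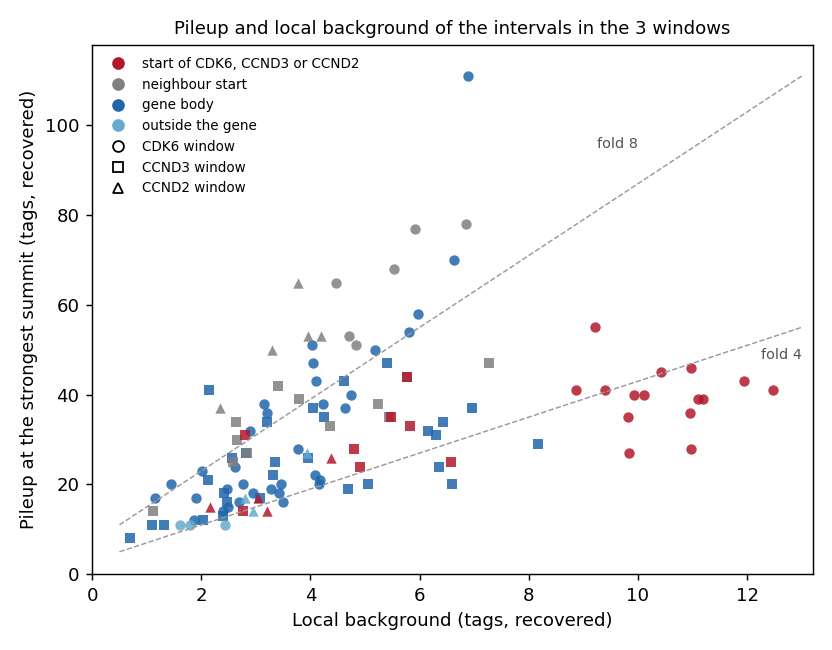
Pileup at the strongest summit (tags) against the local background (tags) for the 119 intervals, 1 point for each interval of each line; dashed lines mark folds of 4 and 8. The CDK6 start intervals lie to the right, at 8.86 to 12.5 background tags, and the CCRF-CEM body peak with 111 tags lies at the top.

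Inside CDK6, 3 of 9 body regions were shared by every line. The highest pileup in the 3 windows lay 81 kb into the gene, at chr7:92384172-92384991. It was 51 tags in TALL-1, 47 in HBP-ALL, 70 in MOLT-4, 50 in DND-41, 38 in KOPT-K1 and 111 in CCRF-CEM. The exact Poisson 95% interval of CCRF-CEM, 91.3 to 134 tags, lay above that of MOLT-4, 54.6 to 88.4. Such intervals reflect counting alone, not the spread between libraries. CCRF-CEM stood highest here, and its tag depth was the lowest of the lists. All lines had 1 summit there, within 149 bp of each other, in intervals of 507 to 804 bp.

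At 197 kb into CDK6, chr7:92268803-92269703, CCRF-CEM and DND-41 stood above the others. Their strongest summits had 43 and 54 tags, against 19 in TALL-1, 20 in HBP-ALL, 21 in MOLT-4 and 22 in KOPT-K1. The strongest summits of the lines spread over 570 bp, so the tags compared are not all from the same position. The site was 1 interval with 2 summits in CCRF-CEM and KOPT-K1, 1 interval with 1 summit in DND-41 and TALL-1, and 2 intervals in HBP-ALL and MOLT-4. Its DND-41 interval, of 901 bp, was the widest.

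At 23 kb into CDK6, chr7:92442632-92443269, the order was different. MOLT-4 had 58 tags, HBP-ALL 40, KOPT-K1 37, TALL-1 36, DND-41 28 and CCRF-CEM 16. CCRF-CEM was thus lowest here, and highest 81 kb into the gene.

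The pileup was also set on a scale that takes out depth: the log2 of each line relative to the 6-line mean, less that line's median over 9045 regions with a peak in every line. At 81 kb CCRF-CEM stood at 1.16 on this scale (Poisson interval 0.88 to 1.43), higher than 98.2% of its own shared regions, and the other lines at −0.58 to 0.36. At 197 kb CCRF-CEM stood at 0.86 and DND-41 at 0.88, and the other lines at −0.74 to −0.29. DND-41 was above 99.6% of its own shared regions, and CCRF-CEM above 94.2% of its own. The values of CCRF-CEM spread more widely. From the 5th to the 95th percentile they ran from −0.90 to 0.91, and those of DND-41 from −0.53 to 0.50. At 23 kb MOLT-4 stood at 0.87, above 98.8% of its own, and CCRF-CEM at −0.86, at the 6.05th percentile of its own. The upstream start spread only from −0.17 to 0.18. The median of CCRF-CEM over chromosome 7 was 0.13, and over the 18 other shared regions within 5 Mb it was 0.38, so the surroundings stood above 0 in that line too. Their part in the CDK6 values was not tested.

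**Figure D4:**
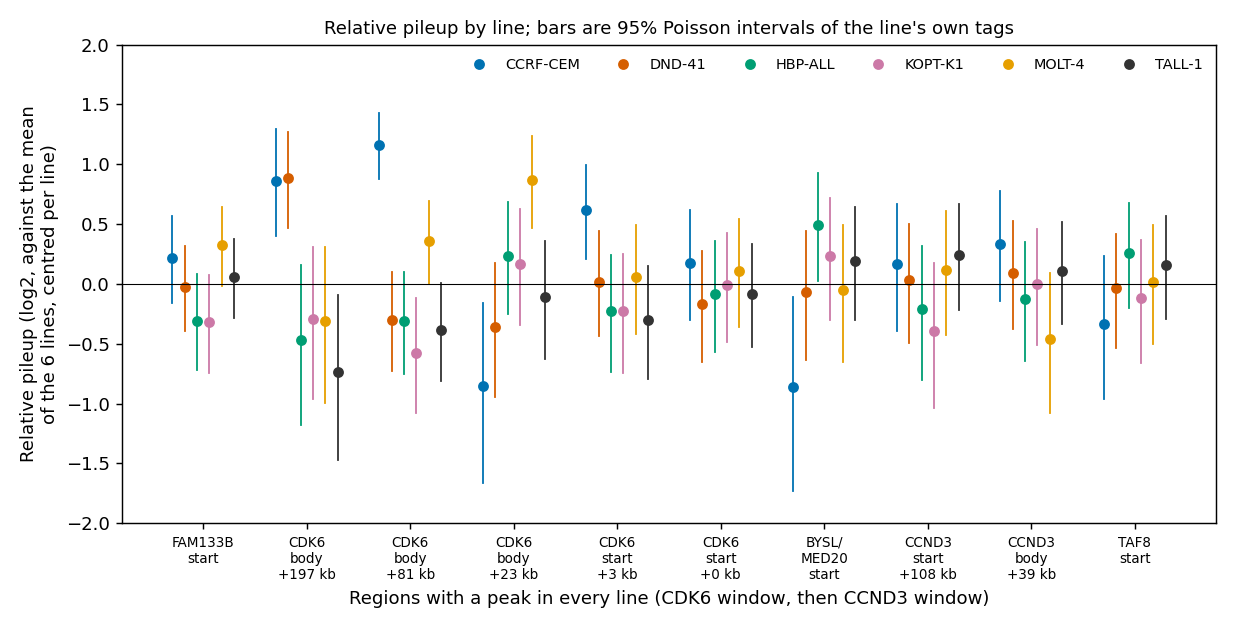
Relative pileup (log2) of each line at the 10 regions with a peak in every line, in the CDK6 window and then the CCND3 window; points are values and bars 95% Poisson intervals of that line's tags. CCRF-CEM stands at 1.16 at the CDK6 site 81 kb into the gene and at −0.86 at the site 23 kb in, while the upstream CDK6 start lies within −0.17 to 0.18 in all lines.

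The other 6 body regions of CDK6 were open in some lines. The region 215 kb in, chr7:92250432-92251011, held peaks of 23 tags in TALL-1, 12 in HBP-ALL, 20 in MOLT-4, 17 in KOPT-K1 and 17 in CCRF-CEM, and DND-41 had none. Only 221 regions of the series (0.551%) were missed by DND-41 alone. The HBP-ALL summit lay to one side of the rest, and the summits spread over 395 bp. DND-41 and KOPT-K1 shared a peak 151 kb in, with 32 and 18 tags, and HBP-ALL and MOLT-4 shared one 145 kb in, with 38 and 15 tags. CCRF-CEM and DND-41 shared peaks at 27 kb, with 24 and 18 tags, and at 203 kb, with 20 and 14 tags. No other line had a peak at these 4 sites. The weaker line of each pair had a −log10 p below 10: KOPT-K1 9.38 at 151 kb, MOLT-4 7.99 at 145 kb, and DND-41 8.34 at 27 kb and 7.41 at 203 kb. Regions of DND-41 and KOPT-K1 only were 1.01% of all merged regions. Those of HBP-ALL and MOLT-4 only were 1.64%, and those of CCRF-CEM and DND-41 only 1.16%. The only line-only peak of the body was 205 kb in, in MOLT-4, with 19 tags and a −log10 p of 11.6. The 3 peaks outside the gene, in KOPT-K1 and TALL-1, had 11 tags each and lay in the lowest 9.27% of their lists by −log10 p.

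At the neighbour FAM133B, the peak chr7:92219100-92220018 had 78 tags in TALL-1, 53 in HBP-ALL, 77 in MOLT-4, 68 in DND-41, 51 in KOPT-K1 and 65 in CCRF-CEM. Its fold enrichment was 8.92 to 12.1, against 2.42 to 5.49 at the CDK6 starts. The fold divides by the local background, which was 4.47 to 6.85 tags at FAM133B and 8.86 to 12.5 tags at the CDK6 starts.

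CCND3 encodes the D-type cyclin that is prominent in developing T cells. Its downstream start, chr6:41909138-41909819, had a peak with 1 summit in every line. The pileup was 44 tags in TALL-1, 28 in HBP-ALL, 33 in MOLT-4, 35 in DND-41, 24 in KOPT-K1 and 31 in CCRF-CEM. The width ran from 228 bp in DND-41 to 596 bp in TALL-1. The interval of DND-41 was the narrowest although its pileup was the second highest.

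At the upstream CCND3 start, chr6:42016356-42016690, CCRF-CEM and HBP-ALL had weak peaks of 14 and 25 tags, and the other lines had none. Both stood in the lower part of their lists, at the 8.51st and 16.1st percentile by −log10 p. A missing peak means that no call passed the authors' threshold, and is not a measurement of closed chromatin. Beside it, at the start of TAF8, which encodes a subunit of the general transcription factor TFIID and runs in the other direction, all lines had a peak: 47 tags in TALL-1, 44 in HBP-ALL, 35 in MOLT-4, 38 in DND-41, 33 in KOPT-K1 and 25 in CCRF-CEM.

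Of the 8 body regions of CCND3, 1 was shared by every line, 39 kb in, at chr6:41977839-41978510. It had 47 tags in TALL-1, 35 in HBP-ALL, 26 in MOLT-4, 43 in DND-41, 37 in KOPT-K1 and 41 in CCRF-CEM, in intervals of 545 to 634 bp. HBP-ALL and MOLT-4 had 2 summits there and the other lines 1. These lines were also the lowest in pileup. The CCRF-CEM fold of 13.4 was the highest in the CCND3 window, over a local background of 2.14 tags.

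CCRF-CEM alone lacked a peak at 2 body regions that the other 5 lines shared, as it did at 971 regions (2.42%) of the series. At 27 kb in, chr6:41990052-41990836, TALL-1 had 25 tags, HBP-ALL 27, MOLT-4 21, DND-41 34 and KOPT-K1 26. At 3 kb in, chr6:42013434-42013800, TALL-1 had 29 tags, HBP-ALL 31, MOLT-4 34, DND-41 24 and KOPT-K1 20. The −log10 p at 3 kb was below 10 in KOPT-K1 (7.01), DND-41 (7.75) and TALL-1 (8.47). Only HBP-ALL (12.5) and MOLT-4 (14.4) would keep that peak with at least 10 required. At 27 kb it was 14.3 or more in all 5 lines. The first region was wide, at 496 to 622 bp, and the second narrow, at 253 to 367 bp. Without CCRF-CEM, 6 of 11 regions in the CCND3 window held a peak in each of the other 5 lines, against 29.7% of all merged regions; this alternative was chosen after seeing the data.

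Near the far end of CCND3, 113 kb in, CCRF-CEM had a peak of 18 tags, DND-41 37, HBP-ALL 19 and KOPT-K1 32, and MOLT-4 and TALL-1 had none. The region 10 kb in had peaks of 13 to 22 tags in DND-41, KOPT-K1, MOLT-4 and TALL-1. The region 32 kb in had 8 to 12 tags in CCRF-CEM, MOLT-4 and TALL-1. Peaks of a single line lay 18 kb in for CCRF-CEM, with 11 tags and a −log10 p of 8.62, and 5 kb in for TALL-1, with 20 tags over a background of 6.59.

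The neighbours BYSL, a gene of ribosome assembly, and MED20, which encodes a Mediator subunit, start side by side, and the peak there, chr6:41888666-41889576, was lowest in CCRF-CEM, whose 56 other shared regions within 5 Mb had a median of −0.37 on the relative scale. It had 39 tags in TALL-1, 42 in HBP-ALL, 27 in MOLT-4, 30 in DND-41, 34 in KOPT-K1 and 14 in CCRF-CEM. MOLT-4 had the widest interval of the CCND3 window there, at 888 bp.

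CCND2 encodes another D-type cyclin, and no region near its start was shared by all lines. The nearest region, chr12:4381127-4382037, lay about 1 kb upstream of the rounded start, and no interval reached the start itself. It had 15 tags in CCRF-CEM, 17 in DND-41, 26 in KOPT-K1 and 14 in MOLT-4, and HBP-ALL and TALL-1 had no peak. CCRF-CEM had the widest interval, of 911 bp with 2 summits 321 bp apart, and the other 3 lines had 257 to 367 bp. With a −log10 p of at least 10 required, KOPT-K1 alone kept a peak at this site, at 12.6. Under the same requirement the downstream CCND3 start kept a peak in 5 lines, and the upstream one in 0. At the downstream one KOPT-K1 fell just short, at 9.95. The downstream CDK6 start kept one in 4 lines, without HBP-ALL at 9.28 and KOPT-K1 at 9.98, and the upstream CDK6 start in all 6. The summits lay 48714 to 48931 bp from that of TIGAR, farther than the 47451 bp between the starts of both genes in GRCh38.p14, since the CCND2 site lies upstream of its start.

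A second site, 4 kb upstream of CCND2, had 17 tags in DND-41, 27 in KOPT-K1 and 14 in MOLT-4. CCND2 had no peak in its body in any line, whereas CDK6 had 9 body regions and CCND3 had 8. The CDK6 and CCND3 genes are also longer. The body of CCND3 was counted from its upstream start, which held a peak in 2 lines. Of its body regions, only that 113 kb in lay past the downstream start, 108 kb in.

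The strongest peak of the CCND2 window was that of TIGAR, the next gene, whose product restrains glycolysis, at chr12:4429838-4430628. It had 53 tags in HBP-ALL, 65 in MOLT-4, 53 in DND-41, 50 in KOPT-K1 and 37 in CCRF-CEM, and its folds of 10.4 to 13.8 were well above those at the CCND2 start, 3.56 to 5.06. TALL-1 had no peak there, as at 630 regions (1.57%) that only TALL-1 lacked.

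TALL-1 thus had no interval in the CCND2 window, although its relative tag depth was the highest. Its list had no peak on chromosome 12 between 3982721 and 4647501, a stretch of 664779 bp, which was measured after the missing peaks were seen. The other lines together had 8 regions in that stretch, of which 1 was shared by all 5. Among the stretches between neighbouring peaks of TALL-1, 875 (5.31%) were at least as long. This is a share of stretches and not of bases. Long stretches cover more bases, so a given gene falls in one more often than this share. HBP-ALL had no peak for 177378 bp around the CCND2 start, and the other 4 lines had none for 47887 to 48400 bp, the distance to TIGAR.

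The intervals of the 3 windows were mostly of a single summit. Of 119 intervals, 10 (8.40%) held 2 summits, against 16.4% of all intervals in the 6 lists, and none held more. By line, CCRF-CEM had 3 such intervals of 19, against 9.18% of its own list, HBP-ALL 2 of 19, against 19.9%, and MOLT-4 2 of 21, against 18.2%. DND-41 had 1 of 20, against 18.2%, KOPT-K1 1 of 21, against 15%, and TALL-1 1 of 19, against 19.1%. In the CDK6 window 2-summit intervals were 7 of 58 intervals, in that of CCND3 2 of 49 and in that of CCND2 1 of 12. Widths ran from 211 to 1173 bp with a median of 435 bp. By line the median over the 3 windows was 404 to 501.5 bp, and over the line's own list 436 to 531 bp. The window median was the lower one in every line but CCRF-CEM, which had 450 bp against 436 bp. The number of intervals per line was nearly even at CDK6, 9 or 10, and at CCND3, 8 or 9, and ran from 0 to 3 at CCND2.

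At the other genes of the pathway, any interval that reached within 2 kb of a start placed by hand was counted. This rule has no assignment to the nearest start. By it the upstream CCND3 start would have a peak in 6 lines, that of TAF8. A peak was found in all 6 lines at 10 of 14 starts. The share over all gene starts was not computed here, for want of hg19 annotation, so this count has nothing to be read against. CDK4, the sister kinase of CDK6, had 52 tags in TALL-1, 64 in HBP-ALL, 56 in MOLT-4, 72 in DND-41, 65 in KOPT-K1 and 41 in CCRF-CEM. The pocket proteins RB1, RBL1 and RBL2, which the kinases phosphorylate, the factor E2F1, the kinase CDK2 and the cyclin CCNE1 also had a peak in every line, as did the inhibitors CDKN1B, CDKN2C and CDKN2D. The cyclin D1 gene CCND1 and the CIP/KIP inhibitor CDKN1A had none in any line. Of the D-type cyclins, the number of lines with a peak was 6 at CCND3, 4 at CCND2 and 0 at CCND1. With a −log10 p of at least 10 required, the number was 5 at the downstream CCND3 start, where KOPT-K1 had 9.95, and 1 at CCND2. The order depends on the start and the distance taken. By assignment to the nearest start, the upstream CCND3 start had a peak in 2 lines. Within 1 kb, the downstream CCND3 start had one in 6 lines and CCND2 in 0.

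At the start of the p16 transcript of CDKN2A, an INK4 inhibitor, there was a peak of 79 tags in DND-41 and of 83 tags in KOPT-K1, and none in the other lines. The gene's other start was not read. At its neighbour CDKN2B, KOPT-K1 alone had a peak, of 12 tags. The remaining INK4 genes did not share this pattern: CDKN2C had 41 tags or more and CDKN2D 24 tags or more in every line.

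**Figure D5:**
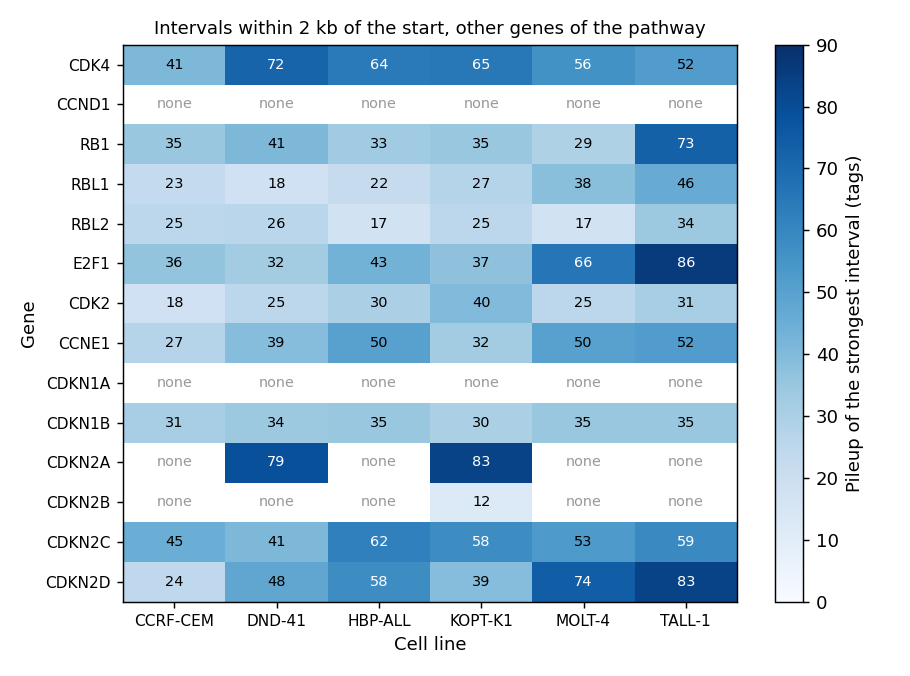
Pileup (tags) of the strongest interval within 2 kb of the start of 14 other cell-cycle genes (rows) in each line (columns); "none" marks lines without an interval. CCND1 and CDKN1A lack an interval in every line, and the p16 start of CDKN2A has 79 tags in DND-41 and 83 in KOPT-K1 only.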

How the data were processed

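ATAC-seq libraries of 6 T-ALL lines, 1 per line, were analysed from the deposited peak lists. Per the submitters' processing notes, MACS2 2.1.1.2016030, SAMtools, Picard and Bowtie2 were used with build hg19; settings and any shift for the Tn5 cut were not given in the sources used here. There is 1 list for each library. Per summit, the deposited lists hold the fold enrichment relative to the local background, −log10 values of p and q, a score (about 10 times the −log10 p) and the summit's offset; the lowest −log10 p in each list was 5.00.

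Lines sharing an interval were joined, the strongest summit giving the values, and intervals were merged across lines at 1 bp of overlap, over chromosomes 1 to 22 and X. Pileup t and background c were recovered from the authors' fold, (t + 1) / (c + 1), and −log10 p, the upper Poisson tail beyond t, within 0.001; at least 99.96% of intervals per list gave a match. To estimate relative tag depth, each list's minimum background was divided by its minimum width and scaled to CCRF-CEM. Read totals are not known here. No test between lines was made. No hg19 genome or annotation was used: gene starts were placed by hand from general knowledge, rounded to 1 kb, and their order was checked against RefSeq (GRCh38.p14), which held promoters of 2 of the 3 genes (CCND2 is named only). Named were all regions at starts, those in 5 or 6 lines, the widest intervals and the strongest line-only region of each window; further regions were named after their values were seen. TIGAR was added to the starts after the lists were read. The members and lists were chosen with earlier results of these data known. A further marker gene is not reported here. Recovery was tested on values simulated with the same formulas, and merging on simulated intervals set well apart. These tests check the code only. Scripts ran in Python 3.11.15 with scipy 1.17.1, numpy 2.4.6, matplotlib 3.10.9 and pandas 2.3.3.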

Additional observations from a re-analysis of the deposited data

Results flagged for a closer look

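Over the 6 lines, 29 sets of values (intervals, summits and covered bases per window, and widths and relative pileups at shared regions) were searched for a line that stood apart, by Dixon's gap ratio at its 95% critical value. For independent sets of continuous values, chance alone points out about 1 set in 20. These sets share intervals, and some are small counts with ties. Here 3 sets were pointed out. DND-41 had 10 summits in the CDK6 window, and every other line had 11. TALL-1 had 9 intervals in the CCND3 window, and every other line had 8. At the FAM133B start the DND-41 interval was 905 bp wide, and the next widest was 768 bp. The first and second of these are differences of 1. Where all the other lines tie, the ratio is 1 whatever the difference, so the rate of 1 in 20 does not apply to them.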

How the results depend on the processing

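With 1 library per line and no read totals, an absent peak near the threshold cannot be told apart from a missed one. The number of intervals did not follow depth: CCRF-CEM, with the lowest relative depth, had 22367, and TALL-1, with the highest, had 16507. Of the regions with a peak in every line, 3 of 6 in the CDK6 window were kept with a −log10 p of at least 10. That threshold left 5 CDK6 intervals in HBP-ALL (10 before) and 6 in KOPT-K1 (10), 5 CCND3 intervals in CCRF-CEM (8) and in KOPT-K1 (8), and 1 CCND2 interval each in CCRF-CEM (2), DND-41 (3) and MOLT-4 (3). With equal numbers of the strongest peaks, 16507 per list, HBP-ALL had 6 CDK6 intervals, CCRF-CEM 5 at CCND3 and 1 at CCND2, and MOLT-4 1 at CCND2. Within 1 kb of its start CCND2 had a peak in 0 lines, and within 5 kb the upstream CCND3 start had one in 6, because the body region 3 kb in was then counted. Without TALL-1, 1 region of the CCND2 window held a peak in every line. With the authors' fold in place of the pileup, the median relative value in the CDK6 window was 0.19 in CCRF-CEM (0.42 with pileups), −0.030 in HBP-ALL (−0.26), −0.064 in MOLT-4 (0.22) and 0.041 in TALL-1 (−0.21), and in the CCND3 window 0.19 in CCRF-CEM (−0.08); the fold divides by the local background, and the cause was not tested further. Leaving out CCRF-CEM or TALL-1 was chosen after seeing the data. Trimmed windows, a 50% overlap and centring by chromosome moved no count by more than 1.5 times and no median beyond its counting interval. No paired analysis was possible because each line has 1 library.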
